A study of Homo sapiens with 10 samples.

Results

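The 55 genes described here encode the machinery of DNA replication and of the step from G1 into S phase. They were taken from a list of symbols and found by gene symbol in the annotation of the array, and for each gene the probe set with the highest mean over all arrays was used. All 55 were found among 18404 named genes. The cells were HEK-293, a line of human embryonic kidney origin, and had been transfected with small interfering RNA (siRNA) duplexes 48 hours before RNA extraction. The 5 groups received siRNA 1 or siRNA 2 to LOC440173, a long non-coding RNA, each at 10 nM, a commercial negative control siRNA at 10 nM, an siRNA to the non-coding RNA PAXIP1-AS1 at 100 nM, or that control at 100 nM. Each group held 2 arrays, and the labels call them biological replicates without saying what separated them. The p-values measure the spread between these samples, which may be technical. All groups share the lipid transfection reagent and the cell line, and no untransfected cells were analysed here.

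Cyclin E with its kinase CDK2, which the phosphatase CDC25A activates, drives entry into S phase. It helps to free E2F transcription factors from the retinoblastoma protein and its relatives, and E2F factors then drive many genes of replication. Origins are licensed in G1, when ORC, CDC6 and CDT1 load the MCM helicase ring on DNA, and fire in S phase, when the kinase CDC7 with DBF4, CDC45 and the GINS complex make that ring an active helicase. HEK-293 cells carry adenoviral E1A, which binds the retinoblastoma family, and all 5 groups share this.

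The promoters of these genes are shown first because E2F factors are known to bind many of them. RefSeq promoter windows (GRCh38.p14, 250 bases before to 50 after the annotated start) were matched by symbol for 48 of the 55 genes. E2F8, GINS4, CCNE2, RPA2, MCM5, MCM4 and RPA3 were not matched. The E2F motif was searched as the letters TTTGGCGC, TTTGCCGC, TTTCGCGC and TTTCCCGC on both strands, and matches may overlap each other. It was found for 27 of the 48 genes (56.2%), counting a gene once if any of its windows held a match, against 3.99% of all 27305 genes in the table and 5.51% of those measured here. A match is a description of the letters and not a bound site. The sequences below run 5′ to 3′ from 200 bases before to 25 after the start, and capitals mark the motif. They are those of the 5 called genes with a window that changed most with each LOC440173 siRNA, first siRNA 2 (TK1, CCNE1, GINS3, E2F1 and MCM2) and then siRNA 1 (CHAF1B, CDC25A, GINS2, CDC45 and MCM7), each from the first window listed for the gene.
TK1 promoter, chr17:78187180-78187404, minus strand: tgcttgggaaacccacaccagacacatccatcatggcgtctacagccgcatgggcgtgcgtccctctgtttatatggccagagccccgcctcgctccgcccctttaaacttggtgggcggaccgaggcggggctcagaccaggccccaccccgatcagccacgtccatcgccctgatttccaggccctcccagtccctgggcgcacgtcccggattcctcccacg
CCNE1 promoter, chr19:29811791-29812015, plus strand: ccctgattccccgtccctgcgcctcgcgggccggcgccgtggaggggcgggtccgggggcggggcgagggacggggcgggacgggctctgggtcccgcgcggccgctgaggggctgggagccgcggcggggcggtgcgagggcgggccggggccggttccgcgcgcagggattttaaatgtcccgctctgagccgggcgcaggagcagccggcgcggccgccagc
GINS3 promoter, chr16:58392271-58392495, plus strand: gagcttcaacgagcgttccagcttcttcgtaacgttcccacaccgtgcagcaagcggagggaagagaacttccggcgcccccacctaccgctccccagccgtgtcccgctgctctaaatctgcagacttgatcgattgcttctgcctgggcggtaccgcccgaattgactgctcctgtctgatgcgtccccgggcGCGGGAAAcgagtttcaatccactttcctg
E2F1 promoter, chr20:33686361-33686585, minus strand: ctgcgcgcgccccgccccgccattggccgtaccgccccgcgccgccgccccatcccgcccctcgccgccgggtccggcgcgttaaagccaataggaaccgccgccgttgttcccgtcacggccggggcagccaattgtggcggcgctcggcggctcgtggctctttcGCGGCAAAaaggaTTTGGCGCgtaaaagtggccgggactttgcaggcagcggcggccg
MCM2 promoter, chr3:127598211-127598435, plus strand: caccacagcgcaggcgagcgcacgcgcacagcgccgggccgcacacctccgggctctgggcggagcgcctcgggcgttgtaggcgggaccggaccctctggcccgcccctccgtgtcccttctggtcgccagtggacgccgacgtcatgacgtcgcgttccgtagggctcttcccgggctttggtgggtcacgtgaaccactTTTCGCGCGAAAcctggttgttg
CHAF1B promoter, chr21:36385192-36385416, plus strand: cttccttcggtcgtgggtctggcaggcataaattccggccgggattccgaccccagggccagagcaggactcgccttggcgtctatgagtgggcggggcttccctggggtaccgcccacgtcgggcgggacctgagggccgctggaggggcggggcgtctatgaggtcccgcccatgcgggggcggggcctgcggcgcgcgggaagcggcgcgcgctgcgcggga
CDC25A promoter, chr3:48188393-48188617, minus strand: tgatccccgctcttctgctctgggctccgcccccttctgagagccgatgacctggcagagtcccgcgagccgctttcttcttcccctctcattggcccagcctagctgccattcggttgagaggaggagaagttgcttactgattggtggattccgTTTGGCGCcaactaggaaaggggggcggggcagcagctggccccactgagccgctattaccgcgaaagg
GINS2 promoter, chr16:85688930-85689154, minus strand: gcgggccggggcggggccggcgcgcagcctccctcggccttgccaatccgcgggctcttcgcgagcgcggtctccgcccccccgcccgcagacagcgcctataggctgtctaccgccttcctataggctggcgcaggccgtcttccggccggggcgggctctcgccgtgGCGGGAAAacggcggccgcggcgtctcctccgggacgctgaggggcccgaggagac
CDC45 promoter, chr22:19479720-19479944, plus strand: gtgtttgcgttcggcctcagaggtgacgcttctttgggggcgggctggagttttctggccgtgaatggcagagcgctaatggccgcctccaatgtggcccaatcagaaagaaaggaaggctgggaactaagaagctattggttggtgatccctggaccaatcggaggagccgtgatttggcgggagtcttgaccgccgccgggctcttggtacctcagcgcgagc
MCM7 promoter, chr7:100101373-100101597, minus strand: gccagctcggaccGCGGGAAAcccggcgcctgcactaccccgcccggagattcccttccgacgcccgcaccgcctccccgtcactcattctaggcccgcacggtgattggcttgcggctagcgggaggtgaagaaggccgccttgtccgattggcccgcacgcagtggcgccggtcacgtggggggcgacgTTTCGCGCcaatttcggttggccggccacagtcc
The MCM2 stretch holds a pair of overlapping matches, in opposite orientations, whose first bases lie at positions 3 and 7 counted from the start. The windows of TK1, CCNE1, CHAF1B and CDC45 held no match to these letters. In GINS3 the match begins at position -5, in E2F1 at -33 and -20, in CDC25A at -44, in GINS2 at -31 and in MCM7 at -187 and -9.

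All values below are log2 expression after RMA, and a gene is called higher or lower where limma gave a Benjamini-Hochberg adjusted p under 0.05 over all 18404 genes. The target was checked first. LINC02893, the current name of LOC440173, stood at 7.72 and 7.43 with siRNA 1 and at 6.71 and 6.59 with siRNA 2, against 8.48 and 8.60 in the control at 10 nM, or 51.4% and 27.0% of that control (adjusted p = 0.000305 and 1.38e-05). No probe set was listed for PAXIP1-AS1, and its level was not analysed here. Array medians lay between 7.06 and 7.12. Across genes, which are not independent replicates, the 2 arrays of a group correlated at 0.997 or more, and each of the 4 control arrays correlated best with the control array of the same replicate number at the other dose. Of 9 listed HEK-293 markers 6 lay at or above the median gene level of 7.66 and the lowest was PAX2 at 6.83, while 0 of 4 hepatocyte, 0 of 4 blood and 0 of 4 keratinocyte markers and 1 of 7 fibroblast and endothelial markers (COL1A1) did. Of the 55 genes, E2F2 and DBF4 lay below that median level. In bulk RNA, fewer cells in S phase and less RNA per cell cannot be told apart.

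With LOC440173 siRNA 2 the replication and G1/S genes were lower in 29 cases and higher in 4, of 55. Calls in either direction covered 30% of all genes and 47.1% of genes at or above the median level. The lower genes made up 52.7% of the 55, where 17.4% of all genes and 26.9% of genes at or above the median level were lower. The higher genes made up 7.27%, where the same shares were 12.5% and 20.2%. The median log2 fold change was -0.17 over the 55 genes, 0.01 over all genes and -0.02 over genes at or above the median level. Thymidine kinase TK1, cyclin E1 (CCNE1) and the helicase subunit GINS3 fell the most, to 37.1%, 37.8% and 48.5% of the control. The called genes had adjusted p from 8.31e-06 to 0.0448.

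TK1, which recycles thymidine for DNA synthesis, stood at 8.69 and 8.59 with siRNA 2, against 10.12 and 10.02 in the control at 10 nM. Both siRNA 2 arrays lay more than 1 log2 unit below every other array of the series. The log2 fold change was -1.43 (SE 0.065, adjusted p = 8.31e-06). CCNE1, the partner that activates CDK2, stood at 8.0 and 8.26 with siRNA 2, against 9.48 and 9.59 in its control, and again no other group reached down to these arrays. It fell by 1.40 on the log2 scale (SE 0.085, adjusted p = 2.41e-05). Cyclin E2 (CCNE2), the other E-type cyclin, stood at 9.65 and 9.75 against 9.29 and 9.56, a difference of 0.28 (95% interval 0.07 to 0.49, adjusted p = 0.0542) that was called under 5 alternatives. CDC25A differed by 0.04 (95% interval -0.08 to 0.16, adjusted p = 0.670).

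**Figure D1:**
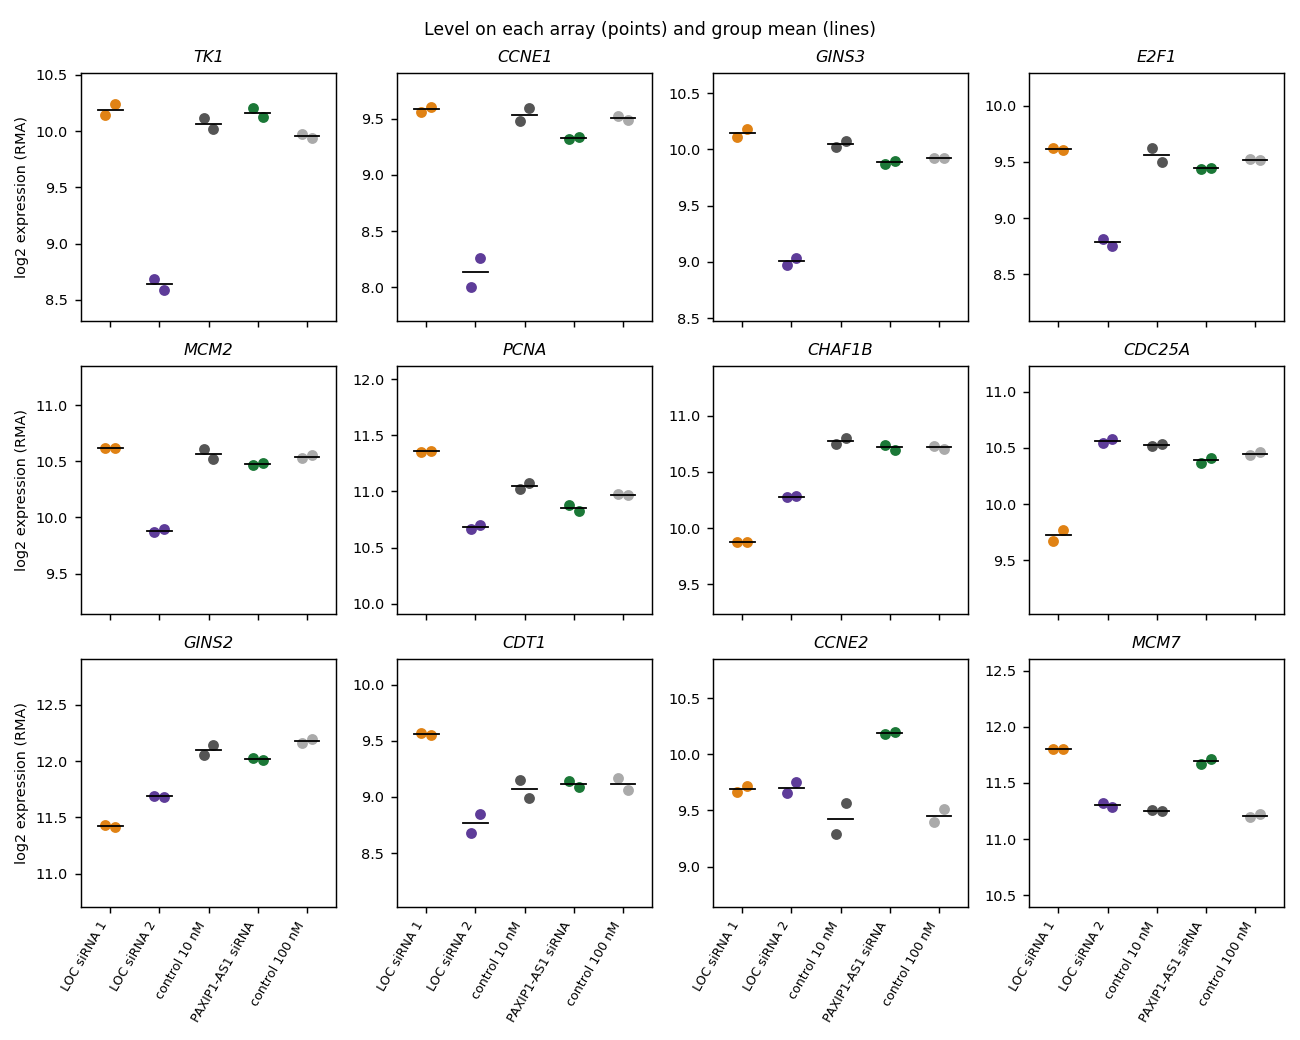
Log2 expression of 12 genes (vertical axis, each panel spanning the same 2.2 log2 units) on each array (points) with the group mean (lines), for LOC440173 siRNA 1, LOC440173 siRNA 2, control 10 nM, PAXIP1-AS1 siRNA and control 100 nM. TK1, CCNE1, GINS3, E2F1 and MCM2 are low on the siRNA 2 arrays only, CHAF1B, CDC25A and GINS2 are lowest on the siRNA 1 arrays, and CCNE2 is highest on the PAXIP1-AS1 siRNA arrays.

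Among the E2F factors, E2F1, an activator of S phase genes, stood at 8.82 and 8.75 with siRNA 2, against 9.63 and 9.50 in the control. It fell by 0.78 (SE 0.056, adjusted p = 5.02e-05). E2F2, another activator, was lower at -0.47 (SE 0.045). The repressor E2F8 was lower at -0.25 (SE 0.063), a call lost without control 10 nM replicate 2 or siRNA 2 replicate 1, or when the fit held only the compared groups. E2F3 and the pocket protein RBL1 differed by -0.10 and 0.05 (adjusted p = 0.195 and 0.582). The 5 genes of this role thus held 3 lower and 0 higher.

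Of 11 licensing genes 7 were lower and 0 higher. MCM2, a subunit of the helicase ring, stood at 9.87 and 9.90 with siRNA 2, against 10.61 and 10.52 in the control, a log2 fold change of -0.68 (SE 0.050, adjusted p = 5.34e-05). The other subunits of the ring were either lower or not called. MCM5 (-0.54), MCM6 (-0.44) and MCM3 (-0.31) were also lower, while MCM4 and MCM7 differed by -0.07 (95% interval -0.18 to 0.04) and 0.05 (95% interval -0.06 to 0.16). The origin-binding subunit ORC1 (-0.30) and the loaders CDC6 (-0.35) and CDT1 (-0.31) were lower, and ORC6 and the CDT1 inhibitor GMNN were not called at -0.01 and 0.10.

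Of 8 genes that turn the loaded ring into an active helicase, 5 were lower and 1 higher. GINS3 stood at 8.98 and 9.03 with siRNA 2, against 10.03 and 10.07 in the control, a log2 fold change of -1.04 (SE 0.051, adjusted p = 1.08e-05). GINS4 stood at 8.80 and 8.84, against 9.53 and 9.60, a log2 fold change of -0.74 (SE 0.049, adjusted p = 3.26e-05). The 4 GINS subunits form a single complex, and their changes spanned -1.04 for GINS3 to 0.02 for GINS1, with GINS2 at -0.41. CDC45, which joins GINS on the ring, was lower at -0.17 and the kinase CDC7 at -0.22, and its activator DBF4 was higher at 0.51 (SE 0.146, adjusted p = 0.0314). The CDC45 call was lost without any single array (adjusted p up to 0.201), and the CDC7 and DBF4 calls were each lost without several single arrays, either siRNA 2 array among them (adjusted p up to 0.191 and 0.143).

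Of the 7 polymerase and primase genes 3 were lower and 1 higher. POLD1, the catalytic subunit of the lagging-strand polymerase, was at -0.50, the primase subunit PRIM2 at -0.45 and POLA2 at -0.28, while PRIM1, the catalytic primase subunit, was higher at 0.24, a call lost without control 10 nM replicate 1 or siRNA 2 replicate 2. The leading-strand polymerase genes POLE and POLE2 differed by -0.06 and 0.05 (adjusted p = 0.413 and 0.669). The sliding clamp PCNA was lower at -0.36, with RFC5 (-0.27) and RFC2 (-0.15) of the clamp loader, and RFC3 and RFC4 were not called. RPA proteins coat single-stranded DNA, and here RPA2 was higher. It stood at 9.38 and 9.27 with siRNA 2, against 8.73 and 8.75 in the control, a log2 fold change of 0.59 (SE 0.068, adjusted p = 0.000447). RPA1 was higher at 0.21, a call lost without control 10 nM replicate 2 or siRNA 2 replicate 1, and RPA3 differed by 0.08. The ligase LIG1 (-0.44) and the flap nuclease FEN1 (-0.19), which join Okazaki fragments, were lower.

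The uracil glycosylase UNG stood at 9.73 and 9.72 with siRNA 2, against 10.22 and 10.31, a log2 fold change of -0.54 (SE 0.059, adjusted p = 0.000338). Thymidylate synthase TYMS was lower at -0.29. Both subunits of ribonucleotide reductase, which makes deoxynucleotides, differed little: RRM1 by 0.09 (95% interval -0.02 to 0.21) and RRM2 by -0.02 (95% interval -0.19 to 0.16). The chromatin assembly subunits CHAF1B (-0.50) and CHAF1A (-0.26) were lower. None of CLSPN, TIMELESS and DTL, which guard forks or degrade CDT1, was called, with values of -0.07, -0.12 and -0.10.

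Of the 33 calls with siRNA 2, 16 were kept under all 17 alternatives other than a 1.5-fold minimum, TK1, CCNE1, GINS3, E2F1, GINS4, MCM2, RPA2 and UNG among them. When the fit held only the compared groups, 15 genes were lower and 2 higher, and called changes of at least 1.5-fold were found for 6 lower genes and 1 higher. The count of higher genes was 2 without control 10 nM replicate 1 or either siRNA 2 array.

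**Figure D2:**
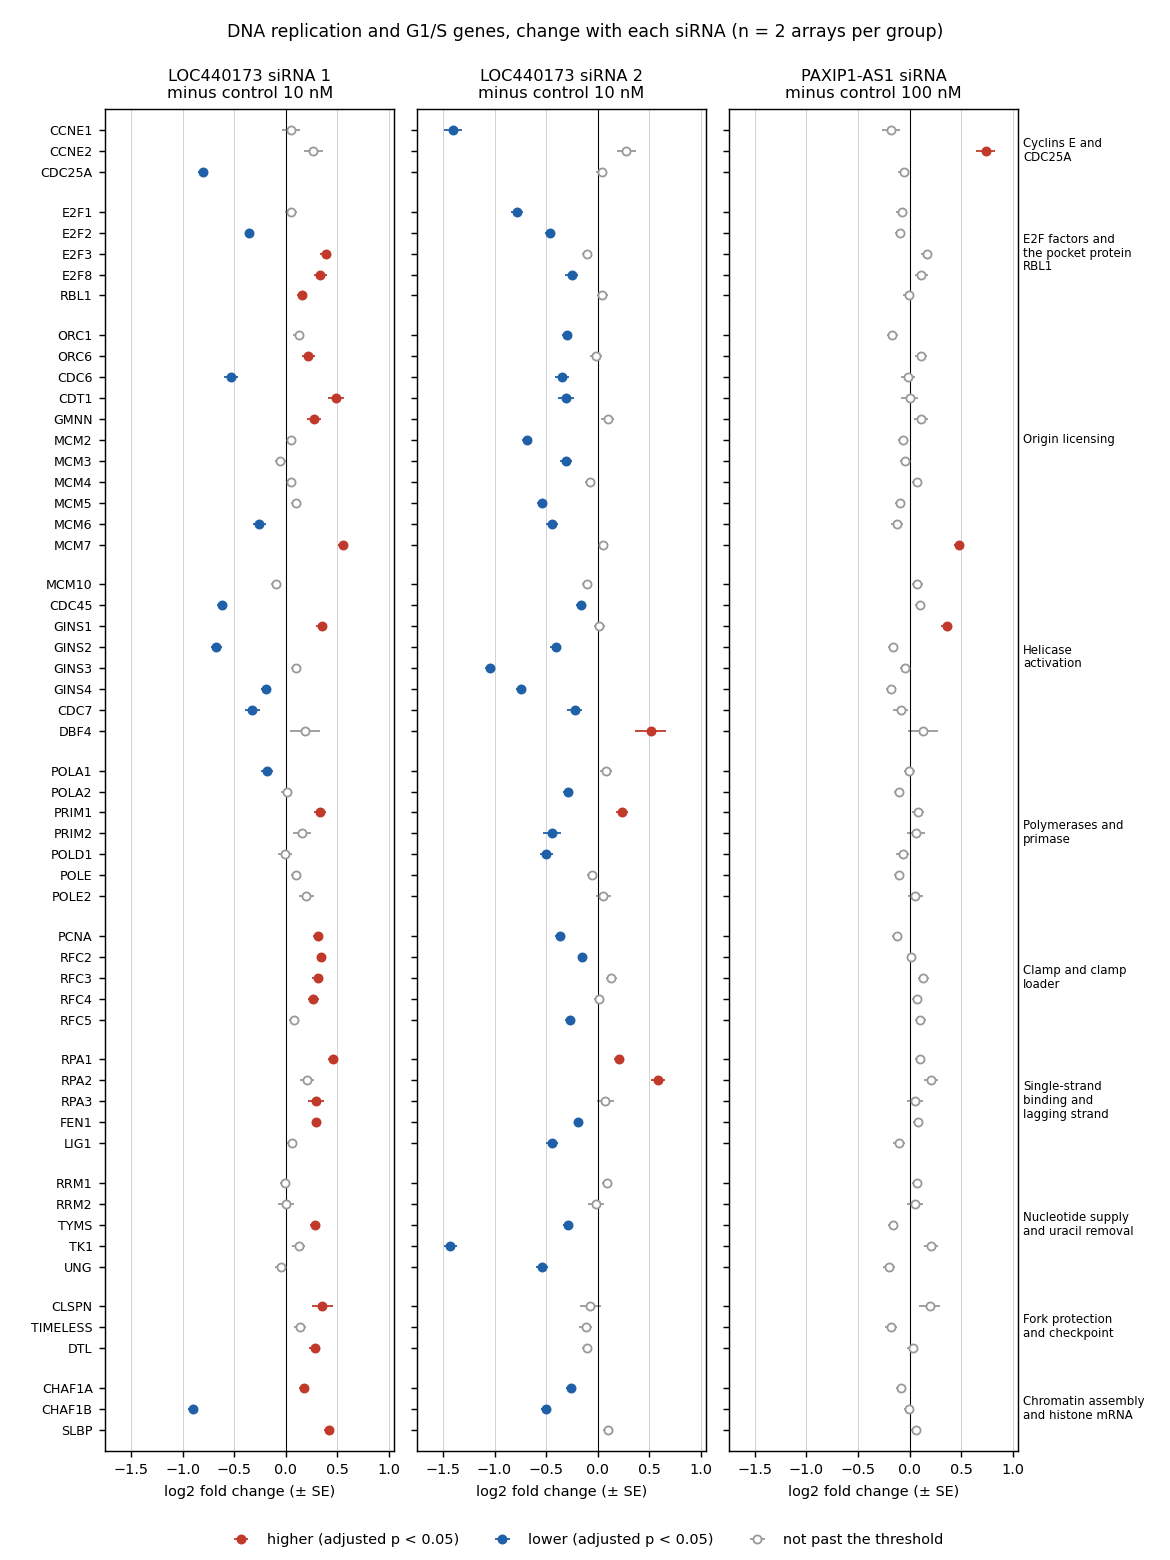
Log2 fold change with its standard error (horizontal axis) for each of the 55 genes, grouped by role, with LOC440173 siRNA 1 and siRNA 2, each minus control 10 nM, and with the PAXIP1-AS1 siRNA minus control 100 nM. Filled points passed an adjusted p of 0.05. The siRNA 2 panel reaches -1.43 for TK1, the siRNA 1 panel -0.90 for CHAF1B, and in the PAXIP1-AS1 panel 3 points, all to the right, are filled.

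With LOC440173 siRNA 1 the same genes went in both directions, 21 higher and 10 lower of 55. Calls in either direction covered 28.8% of all genes and 43.8% of genes at or above the median level. Higher genes made up 38.2% of the 55, where 12.1% of all genes and 17.2% of genes at or above the median level were higher. Lower genes made up 18.2%, near the 16.7% of all genes and below the 26.6% of genes at or above the median level. The median log2 fold change was 0.13 over the 55 genes, 0.05 over all genes and -0.02 over genes at or above the median level. The rises were small, none reaching 1.5-fold, while 4 of the falls did: CHAF1B, CDC25A, GINS2 and CDC45. Both siRNA comparisons share the 2 control arrays, so their values are given side by side and their overlap is not read as a result.

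CHAF1B, a subunit of the assembly factor that places histones behind the fork, stood at 9.87 and 9.88 with siRNA 1, against 10.75 and 10.80 in the control, or 53.5% of it. The log2 fold change was -0.90 (SE 0.048, adjusted p = 1.79e-05), beside -0.50 with siRNA 2. CDC25A stood at 9.67 and 9.77 with siRNA 1, against 10.51 and 10.53 in the control. No array of another group was as low as these, and the log2 fold change was -0.80 (SE 0.052, adjusted p = 3.7e-05). CCNE1 and CCNE2 differed by 0.05 and 0.27 with siRNA 1 (adjusted p = 0.696 and 0.0646), and CCNE2 was called higher under 5 alternatives.

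GINS2 stood at 11.43 and 11.41 with siRNA 1, against 12.05 and 12.14, a log2 fold change of -0.67 (SE 0.051, adjusted p = 6.76e-05). CDC45 stood at 10.13 and 10.17, against 10.76 and 10.77, a log2 fold change of -0.62 (SE 0.048, adjusted p = 7.89e-05). Both proteins belong to the active helicase. Neither gene's groups overlapped, but lower values without overlap were common with siRNA 1. They were found for 12 of the 55 genes, 5228 of all 18404 genes and 3899 of 9202 genes at or above the median level. CDC6, a loader of the MCM ring, stood at 10.72 and 10.70, against 11.17 and 11.31 in the control, a log2 fold change of -0.53 (SE 0.069, adjusted p = 0.000929). Lower calls also went to E2F2 (-0.35), CDC7 (-0.32), MCM6 (-0.26), GINS4 (-0.20) and POLA1 (-0.18). POLA1 was called no longer in most alternatives, at an adjusted p of up to 0.184.

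MCM7 rose the most with siRNA 1. This helicase subunit stood at 11.80 and 11.81, against 11.26 and 11.25 in the control, a log2 fold change of 0.55 (SE 0.047, adjusted p = 0.000117). The other ring subunits ranged from -0.26 for MCM6 to 0.10 for MCM5, so within the ring 1 gene was higher and 1 lower. CDT1 stood at 9.57 and 9.55, against 9.15 and 8.99, a log2 fold change of 0.49 (SE 0.080, adjusted p = 0.00282). Its inhibitor GMNN was higher at 0.27 and ORC6 at 0.22. RPA1 stood at 10.95 and 10.96, against 10.53 and 10.48, a log2 fold change of 0.45 (SE 0.048, adjusted p = 0.00036), and RPA3 was higher at 0.29.

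The clamp and its loader held 4 higher genes of 5 and none lower with siRNA 1: RFC2 (0.35), RFC3 and PCNA (both 0.31) and RFC4 (0.27), with RFC5 at 0.08 (adjusted p = 0.277). Among E2F factors and pocket proteins 3 were higher and 1 lower, with E2F3 at 0.39 and E2F8 at 0.33 and E2F1 at 0.05 (95% interval -0.08 to 0.18). SLBP, which binds the stem-loop of histone mRNAs, was higher at 0.42, GINS1 at 0.35, CLSPN at 0.35, PRIM1 at 0.33, FEN1 at 0.30, TYMS and DTL at 0.28, CHAF1A at 0.18 and RBL1 at 0.16. The second CLSPN probe set, which was dimmer, gave 0.22 (adjusted p = 0.0535). TK1 and GINS3, which were among the genes that fell most with siRNA 2, differed by 0.12 and 0.10 with siRNA 1 (95% intervals -0.03 to 0.27 and -0.02 to 0.22).

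Of the 31 calls with siRNA 1, 21 were kept under all 17 alternatives other than a 1.5-fold minimum, CHAF1B, CDC25A, GINS2, CDC45, CDC6, MCM7, CDT1 and RPA1 among them. RBL1 and CHAF1A lost their calls without most single arrays, and CDC7, MCM6, GINS4, GMNN, ORC6, RPA3 and CLSPN without several, at least 1 of them a siRNA 1 array. The count of lower genes was 6 without control 10 nM replicate 2 or siRNA 1 replicate 2, and 6 when the fit held only the compared groups.

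**Figure D3:**
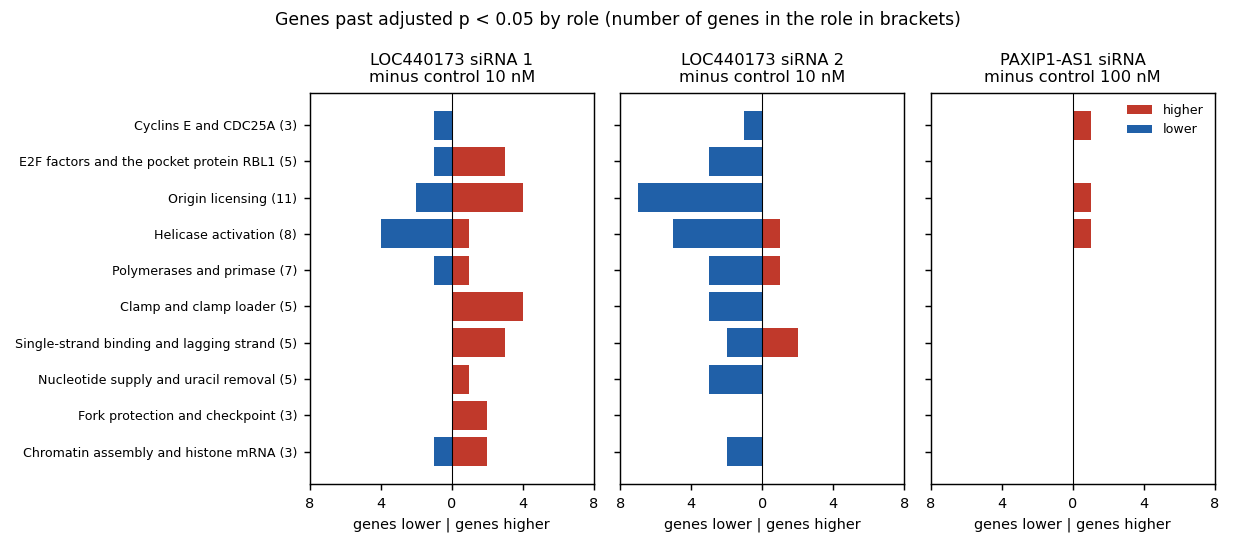
Number of genes past an adjusted p of 0.05 by role, with higher genes to the right of 0 and lower genes to the left, for LOC440173 siRNA 1, LOC440173 siRNA 2 and the PAXIP1-AS1 siRNA, each against its own control. With siRNA 2 the licensing role has 7 lower and 0 higher genes, and with siRNA 1 the clamp role has 4 higher and 0 lower.

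The direct contrast of siRNA 2 with siRNA 1 tested whether the 2 siRNAs against the same RNA differed. The target LINC02893 was itself lower with siRNA 2 in this contrast (log2 -0.93, limma adjusted p = 0.000177). Depth of knockdown and other differences between the siRNAs therefore cannot be told apart. The contrast called 41 of the 55 genes, 35 lower and 6 higher with siRNA 2. It called 37.1% of all genes and 58.2% of genes at or above the median level. The lower genes were 63.6% of the 55, where 19% of all genes and 28.3% of the brighter genes were lower, and the higher ones 10.9%, where the shares were 18.2% and 29.9%. The median difference was -0.26 over the 55 genes, -0.05 over all genes and -0.003 over the brighter genes.

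TK1 differed most, by -1.55 (SE 0.065, adjusted p = 3.15e-06), at 8.69 and 8.59 with siRNA 2 against 10.14 and 10.24 with siRNA 1. CCNE1 stood at 8.0 and 8.26 with siRNA 2 against 9.56 and 9.61 with siRNA 1, a difference of -1.45 (SE 0.085, adjusted p = 1.04e-05). GINS3 stood at 8.98 and 9.03 against 10.11 and 10.18, a difference of -1.14 (SE 0.051, adjusted p = 3.7e-06). In all 3 genes the siRNA 1 arrays lay near those of the control and the siRNA 2 arrays well below. E2F1 stood at 8.82 and 8.75 with siRNA 2 against 9.62 and 9.61 with siRNA 1, a difference of -0.83 (SE 0.056, adjusted p = 1.9e-05). CDC25A had the largest difference the other way among the 55 genes. It stood at 10.54 and 10.58 with siRNA 2 against 9.67 and 9.77 with siRNA 1, a difference of 0.84 (SE 0.052, adjusted p = 1.26e-05). The other 5 genes higher with siRNA 2 were CDC45 (0.45), CHAF1B (0.40), RPA2 (0.38), GINS2 (0.27) and POLA1 (0.26). All 5 clamp and clamp loader genes and all 3 fork protection genes were called lower with siRNA 2 than with siRNA 1. The RFC3 call was lost without any of the 4 compared arrays (adjusted p up to 0.158), and those of CLSPN and TIMELESS without siRNA 1 replicate 2 or siRNA 2 replicate 2. Of the 41 calls 35 were kept under all 17 alternatives other than a 1.5-fold minimum, and MCM6, ORC6 and POLE also lost theirs without single arrays of either siRNA. RRM1 and RRM2 were not called, at 0.10 and -0.02 (SE 0.049 and 0.076).

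PCNA showed values on either side of the control. It stood at 11.35 and 11.36 with siRNA 1 and at 10.67 and 10.70 with siRNA 2, against 11.02 and 11.08 in the control. The clamp gene was called higher with siRNA 1 (0.31, SE 0.049, adjusted p = 0.00238) and lower with siRNA 2 (-0.36, SE 0.049, adjusted p = 0.000936), and kept both calls under the 17 alternatives. CDT1 stood at 9.57 and 9.55 with siRNA 1 and 8.68 and 8.85 with siRNA 2, against 9.15 and 8.99. TYMS stood at 11.58 and 11.57 with siRNA 1 and 11.02 and 10.98 with siRNA 2, against 11.29 and 11.30.

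For RFC2 the values were 11.41 and 11.42 with siRNA 1 and 10.91 and 10.94 with siRNA 2, against 11.07 on both control arrays. FEN1 had 10.89 and 10.88, then 10.42 and 10.38, against 10.57 and 10.60. E2F8 had 9.54 and 9.63, then 8.95 and 9.05, against 9.19 and 9.31. CHAF1A had 9.92 and 9.87, then 9.49 and 9.43, against 9.74 and 9.70. In each of these genes both siRNA 1 arrays lay above and both siRNA 2 arrays below the control arrays. The genes were chosen for their calls in opposite directions on the same arrays, so this order largely follows from that choice. Values without overlap were also common. They were higher with siRNA 1 for 6712 and lower with siRNA 2 for 5358 of all 18404 genes. Of 9202 genes at or above the median level these counts were 3220 and 3773. The differences between the siRNAs ran from -0.80 for CDT1 to -0.44 for CHAF1A. The siRNA 2 calls of CDT1, E2F8, RFC2, FEN1, TYMS and CHAF1A were lost when the fit held only the compared groups (their highest adjusted p over the alternatives ran from 0.0543 for TYMS to 0.239 for RFC2). The RFC2 call was also lost without any single array, that of FEN1 without control 10 nM replicate 2 or siRNA 2 replicate 2, that of CDT1 without control 10 nM replicate 1 or siRNA 2 replicate 1, and that of E2F8 without control 10 nM replicate 2 or siRNA 2 replicate 1. In addition, the siRNA 1 call of CHAF1A was lost without any array other than those of siRNA 2.

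**Figure D4:**
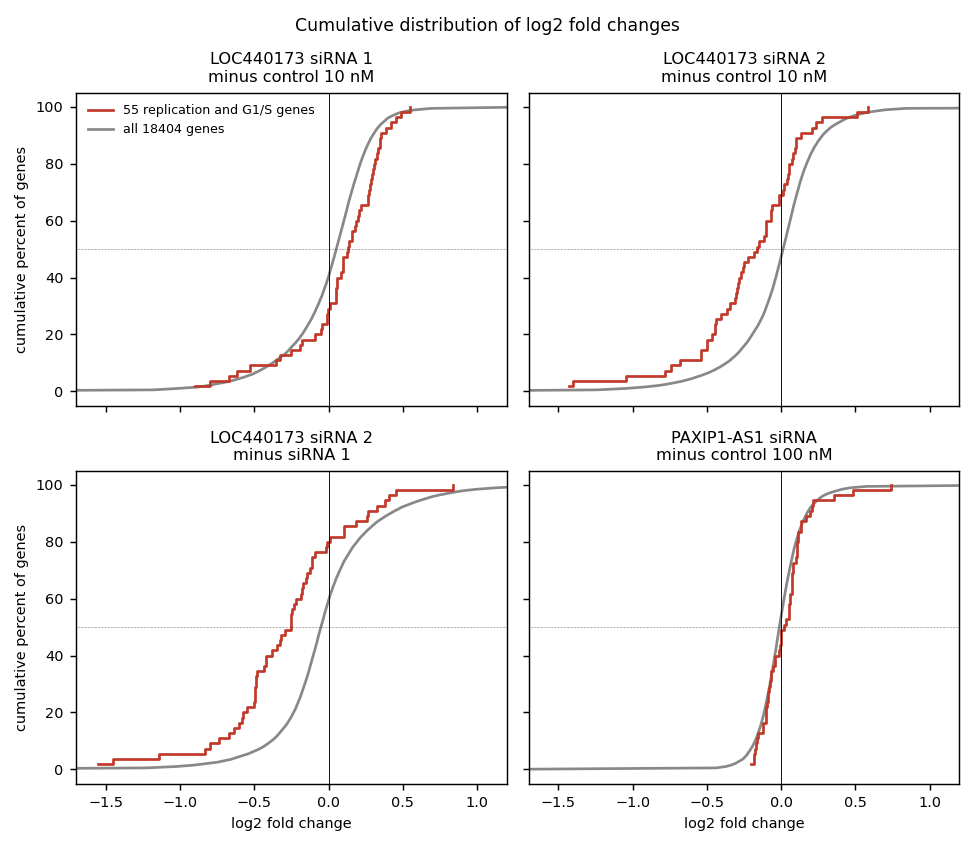
Cumulative percent of genes (vertical axis) against log2 fold change (horizontal axis) for the 55 replication and G1/S genes and for all 18404 genes in 4 contrasts. The curve of the 55 genes lies left of that of all genes for siRNA 2 against its control and against siRNA 1, where the medians were -0.17 and -0.26, and right of it around the middle for siRNA 1, where the median was 0.13.

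With the PAXIP1-AS1 siRNA, set against control 100 nM, CCNE2, MCM7 and GINS1 were higher, and limma called none of the other 52 genes. The 3 higher genes are 5.45% of the 55, where 2.86% of all genes and 5.01% of genes at or above the median level were higher. No gene of the 55 was lower, where the shares were 1.76% and 2.83%, and calls in either direction covered 4.62% and 7.84%. At an unadjusted p under 0.05, 14 of the 55 genes and 3357 of all genes passed in either direction. The median log2 fold change was 0.02, beside -0.01 over all genes and -0.001 over genes at or above the median level. The share of called genes was thus near the background.

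CCNE2 stood at 10.18 and 10.20 with the PAXIP1-AS1 siRNA, against 9.39 and 9.51 in the control at 100 nM. No array of another group was as high, and the change was 1.67-fold (log2 0.74, SE 0.092, adjusted p = 0.00612). MCM7 stood at 11.67 and 11.72, against 11.19 and 11.23, a log2 fold change of 0.48 (SE 0.047, adjusted p = 0.00229). GINS1 stood at 11.26 and 11.25, against 10.86 and 10.94, a log2 fold change of 0.36 (SE 0.056, adjusted p = 0.0138). CCNE2 was called no longer without control 100 nM replicate 1 or either PAXIP1-AS1 array (adjusted p up to 0.0623), and GINS1 without any array of its comparison or when the fit held only these groups (up to 0.111). MCM7 was called under all 17 alternatives.

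The 52 other genes differed by -0.20 for UNG to 0.21 for RPA2. Of these, GINS4 (-0.18), UNG, TYMS (-0.16), GINS2 (-0.16) and ORC1 (-0.17) had the smallest p and were not called, with adjusted p from 0.0793 to 0.128. TK1 differed by 0.21 (95% interval 0.06 to 0.36, adjusted p = 0.129), CCNE1 by -0.18 (95% interval -0.38 to 0.02), E2F1 by -0.08 (95% interval -0.21 to 0.05) and CHAF1B by -0.00 (95% interval -0.11 to 0.11). With genes below the median level left out, 6 were higher and 6 lower, with an intensity trend and robust prior 5 and 4, and after quantile normalization once more 3 and 1. The effect of the PAXIP1-AS1 siRNA minus the mean effect of the LOC440173 siRNAs was tested in the same fit, with dose and target differing together. It was called for 13 of the 55 genes, all higher (23.6%, where 8.79% of all genes and 14.4% of genes at or above the median level were higher). Lower calls covered 2.78% and 3.68%, and calls in either direction 11.6% and 18.1%. TK1 (0.86, SE 0.086, adjusted p = 0.00126), CHAF1B (0.70, SE 0.063, adjusted p = 0.000992), CCNE1 (0.50), CDC45 (0.49) and CCNE2 (0.47) had the largest values. The mean pools siRNAs that differ: TK1 changed by 0.21 with the PAXIP1-AS1 siRNA, beside 0.12 with siRNA 1 and -1.43 with siRNA 2, and CCNE1 by -0.18, beside 0.05 and -1.40. That count was 4 without control 100 nM replicate 1 or PAXIP1-AS1 replicate 2, 5 without either partner of these, 7 without either siRNA 1 array and 8 without control 10 nM replicate 2.

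Between the control at 100 nM and the control at 10 nM the 55 genes gave no call. Limma called 0 of 55 in either direction, and 0% of all genes and of the brighter ones, with 2 of the 55 genes and 692 of all genes at an unadjusted p under 0.05. Values ran from -0.16 for POLD1 to 0.08 for GINS2.

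Other genes of the pathway were taken from a list of 66, of which 65 were measured. With siRNA 2, 24 were lower (36.9%, beside 17.4% of all genes and 26.9% of genes at or above the median level) and 15 higher (23.1%, beside 12.5% and 20.2%). UHRF1, which guides maintenance of DNA methylation behind the fork, was lower at -1.26, DUT, which removes dUTP, at -1.10, CDCA7 at -0.90, the E2F-driven factor MYBL2 at -0.79, the polymerase epsilon subunit POLE3 at -0.65 and the histone chaperones NASP and ASF1B at -0.57 and -0.51. The repressive E2F genes E2F5 (-1.51) and E2F4 (-0.55) were lower as well. Higher genes included the deoxycytidine kinase DCK (0.61), ORC5 (0.53), LIN54 (0.50), WDHD1 (0.42) and cyclin A2, CCNA2 (0.32).

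With siRNA 1, 26 of the 65 were higher (40%, beside 12.1% of all genes and 17.2% of the brighter genes) and 10 lower (15.4%, beside 16.7% and 26.6%). NASP (0.51), TFDP2 (0.52), POLD4 and the kinase WEE1, which restrains CDK1 (both 0.48) and DSCC1 (0.44) were higher, and E2F5 (-0.95), TK2 (-0.55), POLD2 (-0.37), the topoisomerase TOP1 (-0.35) and the checkpoint kinase CHEK1 (-0.29) were lower. NASP differed between the siRNAs by -1.08 and UHRF1 by -1.43 (siRNA 2 minus siRNA 1, SE 0.057 and 0.060). With the PAXIP1-AS1 siRNA 3 were higher (4.62%, beside 2.86% and 5.01%) and 2 lower (3.08%, beside 1.76% and 2.83%), near the shares of the brighter genes. Among them were DCK at 0.59, ATAD2 at 0.31 and TK2 at -0.36. Medians of the 65 were 0.15 with siRNA 1, -0.06 with siRNA 2 and 0.02 with the PAXIP1-AS1 siRNA.

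Among 5 D-type cyclin and partner genes, 4 were lower with siRNA 1 (80%) and 3 with siRNA 2 (60%). Over all genes 16.7% and 17.4% were lower, and over genes at or above the median level 26.6% and 26.9%. The D-type cyclins CCND2 and CCND3 and the kinase CDK6 were lower with siRNA 1 (-2.92, -1.20 and -1.02) and with siRNA 2 (-1.80, -0.50 and -1.0), and CDK4 was lower with siRNA 1 (-0.22), while 0 of the 5 genes of this list were called with the PAXIP1-AS1 siRNA. Of 6 measured CDK inhibitor genes 2 were called with each LOC440173 siRNA (33.3%, near the 28.8% and 30% of all genes). Of genes at or above the median level 43.8% and 47.1% were called. The PAXIP1-AS1 siRNA gave 1 call among them (16.7%, beside 4.62% of all genes and 7.84% of genes at or above the median level). CDKN1B was higher with siRNA 1 (0.47) and lower with siRNA 2 (-0.58), a difference of -1.05 (SE 0.053, adjusted p = 5.41e-06). CDKN1A, the p53-driven CDK inhibitor, was lower with siRNA 1 (-0.39), siRNA 2 (-0.30) and the PAXIP1-AS1 siRNA (-0.75, adjusted p = 0.000852).

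Genes of mitosis, a later phase of the cycle, held more higher than lower calls with siRNA 2. Of 28 measured, 14 were higher (50%) and 5 lower (17.9%), with a median of 0.28, beside -0.17 over the replication and G1/S genes. Over all genes 12.5% were higher and 17.4% lower, and over genes at or above the median level 20.2% and 26.9%. BIRC5 (-1.01), AURKA (-0.90) and CDC25B (-0.72), regulators of mitotic entry and chromosome segregation, were lower, and NEK2 was higher (0.40). With siRNA 1, 18 of the 28 were higher (64.3%) and 0 lower (median 0.25). The shares were 12.1% and 16.7% of all genes, and 17.2% and 26.6% of genes at or above the median level. Among the higher genes were NEK2 (0.60), KIF2C (0.54), CDC20 (0.49) and cyclin B1 CCNB1 (0.45). With the PAXIP1-AS1 siRNA CDC20 (0.51) was the 1 gene called (3.57%, beside 4.62% of all genes and 7.84% of genes at or above the median level). Whether cell cycle distribution moved the replication genes was not tested.

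Of the 9 HEK-293 markers, 1 was higher and 2 lower with siRNA 1 (33.3% called, beside 28.8% of all genes and 43.8% of genes at or above the median level). With siRNA 2, 1 was higher and 5 lower (66.7%, beside 30% and 47.1%). With the PAXIP1-AS1 siRNA 0 were higher and 3 lower (33.3%, beside 4.62% and 7.84%). Their summed log2 level was 82.2 to 82.5 with siRNA 1 and 82.5 to 82.9 with siRNA 2, against 83.4 in the control at 10 nM, and 81.2 to 81.4 with the PAXIP1-AS1 siRNA, against 83.3 to 83.9 in the control at 100 nM. The neurofilament gene NEFM was lower with siRNA 1 (-0.77) and higher with siRNA 2 (1.11), and NEFL was lower with siRNA 1 (-1.07), siRNA 2 (-0.51) and the PAXIP1-AS1 siRNA (-1.13). Of the other cell type markers, PECAM1 (0.36), COL1A1 (0.33), ITGAM (0.26) and SERPINA1 (0.17) were called higher with siRNA 1. These were 1 of 4 hepatocyte, 2 of 7 fibroblast and endothelial, 1 of 4 blood and 0 of 4 keratinocyte markers. Over all genes 12.1% were higher, and over genes at or above the median level 17.2%. Medians with siRNA 1 were 0.17 for the hepatocyte, 0.19 for the fibroblast and endothelial, 0.16 for the blood and 0.19 for the keratinocyte list. The median was 0.13 for the 55 genes, 0.05 for all genes and -0.02 for genes at or above the median level. All of these markers but COL1A1 lay below the median gene level. The part of these markers in the results above was not tested.

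The E2F motif of the promoters was set beside the calls as a description. Of the 27 genes with a match, 15 were lower and 0 higher with siRNA 2, and of the 21 without, 11 were lower and 3 higher, with medians of -0.28 and -0.15. Lower genes were thus more than 50% of either group, beside 17.4% of all genes and 26.9% of genes at or above the median level. Higher calls covered 12.5% and 20.2%. Whether the groups with and without a match differed was not tested. With siRNA 1 the counts were 11 higher and 7 lower of 27, and 8 higher and 2 lower of 21, with medians of 0.10 and 0.13. Over all genes 12.1% were higher and 16.7% lower, and over genes at or above the median level 17.2% and 26.6%. TK1 and CCNE1, which fell most with siRNA 2, and CHAF1B, which fell most with siRNA 1, are in the group without a match, and GINS3, E2F1 and MCM2 in the group with one. No gene of the group without a match was called with the PAXIP1-AS1 siRNA, and 2 with one, MCM7 and GINS1, were higher.

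Across the LOC440173 and PAXIP1-AS1 siRNA comparisons against controls, 48 of the 55 genes were called at least once. The share of all genes called at least once in these comparisons is not given here, so that count is not read as a result. The other 7 were MCM4, MCM10, POLE, POLE2, RRM1, RRM2 and TIMELESS, with log2 fold changes from -0.18 (TIMELESS with the PAXIP1-AS1 siRNA) to 0.20 (POLE2 with siRNA 1). For the LOC440173 siRNAs alone, 8 of the 55 genes (14.5%, these 7 and CCNE2) and 56% of all genes were called with neither. Of genes at or above the median level, where most of the 55 lie, 43.8% were called with siRNA 1 and 47.1% with siRNA 2. POLE2 was called with siRNA 1 under 5 alternatives and TIMELESS with the PAXIP1-AS1 siRNA under 1. RRM2 was at 10.63 and 10.59 with siRNA 1, 10.58 and 10.61 with siRNA 2, and 10.50 and 10.73 in the control at 10 nM, and its groups overlapped in every comparison named here.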

How the data were processed

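RNA of HEK-293 cells was measured on 10 Affymetrix expression arrays. The deposited values are on the log2 scale, with 1 row for each of 32321 probe sets, and per the submitters' processing notes were made with RMA (background correction, quantile normalization and summary) and limma, versions not given. The sources used here give neither genome build nor array definition file. The platform annotation gave a single symbol for 19158 probe sets, several for 1388, and did not list 11775; gene IDs were compared with RefSeq (GRCh38.p14), which held 19128 and changed 0 symbols. The brightest probe set stood for each of 18404 genes. A mean per group was fitted over all arrays with limma (version 3.58.1, R 4.3.3) and eBayes (5 residual and 2.87 prior degrees of freedom), two-sided, Benjamini-Hochberg adjusted over all genes. The smallest p of an exact permutation test with 2 arrays per group is 0.333, so calls rest on the pooled spread. The number of arrays limits the precision. The code was tested on simulated data.

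The members and gene lists were chosen with earlier results of these data known. Values of every array are given for up to 8 called members with the largest change in each siRNA comparison, 5 in the direct contrast and all called in opposite directions with both LOC440173 siRNAs, and of other lists the 4 called genes with the smallest p were eligible, with its 5 smallest p named where fewer than 5 members were called. Alternatives were quantile normalization once more, all probe sets of a gene averaged, genes below the median level left out, a fit of the compared groups alone, a trend with robust prior, a block for the replicate number, weights per array, a 1.5-fold minimum and each array left out. No column of the table was left unused (0 columns).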

Additional observations from a re-analysis of the deposited data

Results flagged for a closer look

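The PCNA effects of the LOC440173 siRNAs differed by -0.67 (siRNA 2 minus siRNA 1, log2), those of CDT1 by -0.80, E2F8 by -0.59, TYMS by -0.57, RFC2 by -0.49, FEN1 by -0.48 and CHAF1A by -0.44. These genes stood out because limma called each higher with siRNA 1 and lower with siRNA 2, as for 12.7% of the 55 genes and 2.37% of all genes. The direct contrast also called each difference, which largely follows from that choice and is no separate support. The siRNA 2 call of RFC2 was lost without any single array, those of FEN1, CDT1 and E2F8 without either of 2 arrays of their comparison, and the siRNA 1 call of CHAF1A without any array other than those of siRNA 2, while PCNA kept both calls. In all, the direct contrast called 41 of the 55 genes (74.5%), beside 37.1% of all genes and 58.2% of genes at or above the median level. The PAXIP1-AS1 effect minus the mean effect of the LOC440173 siRNAs was called for 13 genes, of which TK1 had 0.86 and CHAF1B 0.70. These 13 were 23.6% of the 55, beside 11.6% of all genes and 18.1% of genes at or above the median level.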

How the results depend on the processing

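Each count of called genes was recomputed under 18 alternatives, 10 of which left out 1 array. At a 1.5-fold minimum, 0 genes were higher and 4 lower with siRNA 1, 1 higher and 6 lower with siRNA 2, 1 higher and 10 lower in siRNA 2 against siRNA 1, 1 higher with the PAXIP1-AS1 siRNA, and 2 differed between the PAXIP1-AS1 and mean LOC440173 effects. Fewer genes can pass by its construction. When the fit held only the compared groups, 6 were lower with siRNA 1, and 2 higher and 15 lower with siRNA 2; fewer arrays then estimate the spread. With the PAXIP1-AS1 siRNA, 6 were higher and 6 lower with dim genes left out, 5 and 4 with a trend and robust prior, and 1 was lower after another quantile normalization and 1 with array weights; the trend and robust prior gave 20 genes for the difference of effects. The cause was not tested. Leaving out each array gave 15 to 20 higher and 6 to 9 lower genes with siRNA 1, 2 to 4 and 24 to 27 with siRNA 2, 6 to 7 and 31 to 35 in siRNA 2 against siRNA 1, 1 to 3 higher and 0 lower with the PAXIP1-AS1 siRNA, and 4 to 12 for the difference of effects. The lone array of a group was then assumed to vary like the others. No called log2 fold change of the 55 genes turned its sign under these alternatives.

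Deviations of same-numbered arrays were correlated over 10 pairs of groups. They gave r = 0.293 to 0.529 in pairs without siRNA 1, and 0.0677 to 0.0904 in pairs with siRNA 1. The groups other than siRNA 1 thus shared some deviation by replicate number. Because siRNA 1 did not, the numbers were not taken to pair the arrays in the main fit, and a block was an alternative. With the replicate block the counts were 23 higher and 10 lower with siRNA 1, 5 and 29 with siRNA 2, 7 and 36 in siRNA 2 against siRNA 1, 3 and 0 with the PAXIP1-AS1 siRNA and 14 for the difference of effects, and the block moved no count of calls by over 1.5 times. CCNE2 passed as higher in this fit, at an adjusted p of 0.0184 with siRNA 1 and 0.0151 with siRNA 2, POLE2 as higher with siRNA 1 (0.0294), and CDC6 as higher (0.0446) and RPA3 as lower (0.0495) in siRNA 2 against siRNA 1. The alternatives for the difference of effects were chosen after seeing the data. Scanner signals were not used here, so the level of dim genes such as DBF4 and E2F2 over background is unknown.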
